A study of Mus musculus with 6 samples.

Results

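A set of 10 genes of the NLRP family that are known from oocytes and germ cells were followed in mouse embryonic stem (ES) cells grown with or without vitamin C. They were Nlrp2, Nlrp4a, Nlrp4c, Nlrp4e, Nlrp4f, Nlrp5, Nlrp9a, Nlrp9b, Nlrp9c and Nlrp14, 10 of the 19938 genes that the arrays measured through a probe set (the group of probes for a transcript) with exactly 1 gene symbol. The genes were listed by family membership with earlier results of these arrays known. Where a gene had several probe sets its probe set was chosen by the highest mean signal over all 6 arrays, but each of the 10 genes had 1 probe set, so no measured value chose between probe sets here. All cells were Oct4-GiP ES cells, grown on gelatin in N2B27 medium with LIF (1000 U/ml), the MEK inhibitor PD0325901 (1 μM) and the GSK3β inhibitor CHIR99021 (3 μM), and all groups shared this culture. The untreated group had 3 arrays, and the vitamin C group had 3 arrays of cells given L-ascorbic acid 2-phosphate at 200 μg/ml for 72 hours. The labels name this 1 line and give no strain, sex or passage. They number the replicates without saying whether these were separate cultures, so the p-values measure the spread between these arrays of that line. The study's title places the treatment in the context of Tet-dependent DNA demethylation, and the comparison asks which transcripts differ once the cells have had vitamin C.

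NLRP proteins carry a pyrin domain, a nucleotide-binding NACHT domain and leucine-rich repeats. Some of them sense infection or damage in immune cells and build inflammasomes, whereas another branch of the family is transcribed mainly in oocytes and early embryos, and the Nlrp4 and Nlrp9 branches have expanded in rodents. The best known of the oocyte members is NLRP5 (MATER), a subunit of the subcortical maternal complex, without which embryos arrest at early cleavage. Many germline genes are kept silent outside the germline by DNA methylation of their promoters and vitamin C supports the TET enzymes, which oxidise 5-methylcytosine.

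The promoter windows of the called Nlrp4 paralogs Nlrp4c, Nlrp4a and Nlrp4f are shown because their signals went in different directions, beside that of Nlrp4b, whose signal did not pass the test. Nlrp4b read below the lower quartile of all probe sets on every array, so a change in it could go unseen. Each is a 300-base window from RefSeq (GRCm38.p6) running from 250 bases before the annotated start to 50 bases after it, printed 5′ to 3′ on the gene's strand with every CpG in capitals. The Nlrp4c window lies at chr7:6044911-6045210 on the + strand, the Nlrp4a window (the second of 2 listed starts) at chr7:26435364-26435663 on the + strand, the Nlrp4b window (the first of 2) at chr7:10687543-10687842 on the + strand and the Nlrp4f window at chr13:65205667-65205966 on the - strand.
Nlrp4c: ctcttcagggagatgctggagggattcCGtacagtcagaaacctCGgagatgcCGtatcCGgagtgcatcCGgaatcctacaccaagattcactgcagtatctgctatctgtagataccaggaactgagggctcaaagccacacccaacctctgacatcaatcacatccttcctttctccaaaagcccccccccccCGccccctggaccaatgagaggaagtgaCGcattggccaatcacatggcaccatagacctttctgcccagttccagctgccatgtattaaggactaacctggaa
Nlrp4a: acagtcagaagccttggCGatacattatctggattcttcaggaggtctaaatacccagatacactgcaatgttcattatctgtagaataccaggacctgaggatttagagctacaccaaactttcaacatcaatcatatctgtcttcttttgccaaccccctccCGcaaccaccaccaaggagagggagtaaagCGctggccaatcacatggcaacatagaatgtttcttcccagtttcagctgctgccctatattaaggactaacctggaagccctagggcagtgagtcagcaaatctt
Nlrp4b: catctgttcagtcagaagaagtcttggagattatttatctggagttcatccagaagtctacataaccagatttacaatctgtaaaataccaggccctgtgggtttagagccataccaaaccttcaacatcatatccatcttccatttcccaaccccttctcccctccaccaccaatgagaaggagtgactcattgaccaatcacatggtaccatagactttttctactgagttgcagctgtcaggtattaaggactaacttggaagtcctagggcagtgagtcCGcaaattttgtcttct
Nlrp4f: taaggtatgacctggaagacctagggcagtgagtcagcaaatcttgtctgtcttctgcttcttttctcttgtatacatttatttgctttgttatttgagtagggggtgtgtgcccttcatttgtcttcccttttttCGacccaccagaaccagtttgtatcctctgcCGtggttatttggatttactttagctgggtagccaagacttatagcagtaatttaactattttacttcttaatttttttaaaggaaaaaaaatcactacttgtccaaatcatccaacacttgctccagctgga

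The Nlrp4c window holds 7 CpGs, the Nlrp4a window 3, the Nlrp4b window 1 and the Nlrp4f window 2, where the median over all 32851 windows of the table is 7 and the quartiles are 3 and 20. The window at the other listed start of Nlrp4a holds 5. Nlrp4c and Nlrp4a aligned over 279 columns with 73.8% identical bases, Nlrp4c and Nlrp4b over 280 columns with 72.5%, and Nlrp4a and Nlrp4b over 304 columns with 74.3%. The longest run shared exactly by these 3 windows is TATTAAGGACTAAC, 14 bases that begin at position 281 of the Nlrp4c window (counted from 1 at its 5′ end). It occurs in 4 of all windows on either strand, which are these 3 and the overlapping window at the other listed start of Nlrp4b. A second shared run, CCAATCACATGG, begins at position 233 and occurs in 7 windows. The first 45 bases of the Nlrp4f window matched the last 45 of the Nlrp4a window at 91.1%. Nlrp4c and Nlrp4f aligned with 52.3% identical bases over 153 columns, a value like that of the Nlrp4c and Nlrp9c windows (53.0%). The Nlrp4c window reached only to position 272 of the Nlrp4a window, and the match of Nlrp4f began at position 256. The Nlrp4c and Nlrp4f windows thus cover mostly different stretches. Neither this value nor their CpG counts compare corresponding sequence. The window at the other listed start of Nlrp4a matched Nlrp4c at 49.4%, so the likeness to Nlrp4c holds for 1 of its 2 listed starts.

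Across 9 of the 10 genes the table held 11 windows, with between 0 CpGs (Nlrp4e) and 9 CpGs, the latter for the second listed start of Nlrp5 (its first held 1). The windows of Nlrp9a, Nlrp9b and Nlrp9c held 2 each, and that of Nlrp2 held 3. The Nlrp9a and Nlrp9c windows aligned over 289 columns with 84.4% identical bases. Nlrp14 had no entry in the promoter table. None of the 11 windows holds CACGTG, the E-box bound by MAX partners, on either strand, which 7.15% of all windows hold. GCGGGA, part of the E2F site, occurs in the windows of Nlrp2, Nlrp4a (second start) and Nlrp5 (second start) and in 19.98% of all windows. TAATTG, a homeobox core that the oocyte factor NOBOX binds, occurs in those of Nlrp9a and Nlrp9b and in 2628 of all 32851 windows. These 3 motifs do not overlap one another in their letters, and a match is a description of the window only.

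Of the 10 genes, 3 rose with vitamin C (Nlrp4c, Nlrp14 and Nlrp4f), 1 fell (Nlrp4a) and 6 did not pass the test, which was limma across all genes with Benjamini-Hochberg adjustment at an adjusted p under 0.05. Over all 19938 genes 13.2% passed, 5.75% higher and 7.40% lower, and since the genes were listed with results known their share is a description only. For 6 of the 10 genes every array of one condition lay above every array of the other, which was also so for 35.0% of all genes. The median log2 difference of the 10 genes was 0.10, beside 0.01 over all genes, and the single differences ran from -0.61 to 1.56. With any 1 array left out, 1483 to 1721 genes passed in place of 2623, and the 4 called NLRP genes passed each time. All values are log2 signals after RMA, which are relative levels for a probe set across arrays and cannot be ordered between genes.

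**Figure D1:**
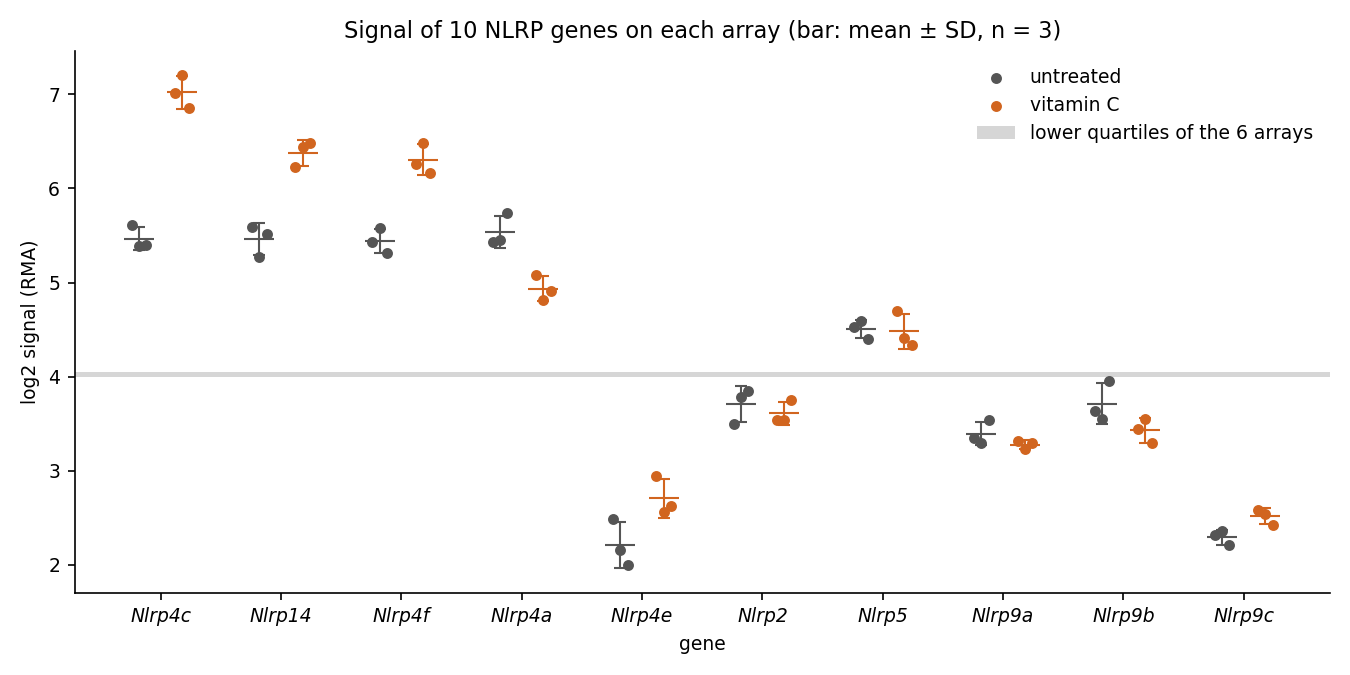
Log2 signal of each of the 10 NLRP genes (x axis) on the 3 untreated and 3 vitamin C arrays, with the mean and SD of each group as bars. The grey band gives the lower quartiles of all probe sets on the 6 arrays (3.99 to 4.05). The groups are apart for the called genes Nlrp4c, Nlrp14, Nlrp4f and Nlrp4a above the band and, by 0.07 each, for Nlrp4e and Nlrp9c below it, and levels cannot be compared between genes.

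Nlrp4c, an Nlrp4 paralog transcribed in oocytes, changed most. It read 5.61, 5.39 and 5.40 on the untreated arrays and 7.02, 7.20 and 6.85 on the vitamin C arrays. Every vitamin C array lay above every untreated array, by at least 1.24. The mean rose from 5.46 ± 0.12 to 7.02 ± 0.18 (SD, n = 3 each), which is 2.95-fold (log2 difference 1.56 ± 0.11 SE, 95% interval 1.31 to 1.81, limma adjusted p = 0.000330). Among the differences of all genes, ordered from the largest rise, Nlrp4c held rank 32.

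Nlrp14, a member transcribed in the germ cells of both sexes, read 5.59, 5.27 and 5.52 without and 6.22, 6.44 and 6.48 with vitamin C. The lowest vitamin C array exceeded the highest untreated one by 0.63. The mean rose 1.90-fold, from 5.46 ± 0.17 to 6.38 ± 0.14 (SD, n = 3 each; log2 difference 0.92 ± 0.11 SE, 95% interval 0.67 to 1.17, limma adjusted p = 0.00249). Nlrp4f, an oocyte gene and the only one of the Nlrp4 paralogs here that lies on chromosome 13, read 5.43, 5.57 and 5.31 without and 6.26, 6.49 and 6.17 with vitamin C, so its groups were apart by 0.59. It rose 1.82-fold, from 5.44 ± 0.13 to 6.31 ± 0.16 (SD, n = 3 each; log2 difference 0.87 ± 0.10 SE, 95% interval 0.62 to 1.11, limma adjusted p = 0.00288). The intervals of Nlrp14 and Nlrp4f overlapped over most of their length, and both ended below the lower bound of Nlrp4c.

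Nlrp4a, another oocyte paralog, went the other way. It read 5.43, 5.45 and 5.74 on the untreated arrays and 5.08, 4.82 and 4.91 on the vitamin C arrays. All 3 vitamin C arrays lay below the untreated ones, with a gap of 0.35 between the groups. The mean fell to 65.7% of the untreated level, from 5.54 ± 0.17 to 4.94 ± 0.13 (SD, n = 3 each; log2 difference -0.61 ± 0.11 SE, 95% interval -0.85 to -0.36, limma adjusted p = 0.0118). Its 95% interval lay wholly below 0 and those of Nlrp4c, Nlrp14 and Nlrp4f wholly above it. Of the NLRP genes not called, the intervals of Nlrp4e (0.15 to 0.84) and Nlrp9c (0.05 to 0.40) also lay above 0. That of Nlrp9b (-0.56 to -0.005) lay below 0. At an unadjusted limma p under 0.05 there were 7 of the 10 genes, beside 5777 of all 19938 genes. The 4 called genes passed under all 12 other settings, with adjusted p-values up to 0.0035 for Nlrp4c, 0.0149 for Nlrp14, 0.0152 for Nlrp4f and 0.0431 for Nlrp4a. Some of these settings could change the p-value but not the difference.

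Nlrp4e, another maternal-effect Nlrp4 gene, read 2.48, 2.15 and 2.00 without and 2.94, 2.56 and 2.62 with vitamin C. Its groups were apart by 0.07 and its difference of 0.49 ± 0.15 (SE, limma adjusted p = 0.0684) did not pass. Among the fits without a replicate block it passed with a trended and robust spread model (limma adjusted p = 0.0359) and without untreated replicate 1 (0.0378). All 6 of its values lay below the lower quartile of all probe sets on their array (3.99 to 4.05). The remaining Nlrp4 genes on the arrays, Nlrp4b and the pseudogene Nlrp4d, were as dim and did not pass (0.03 ± 0.10 and -0.23 ± 0.11, log2 difference ± SE).

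A further probe set is assigned to Nlrp4e and Nlrp4c together and was left out of the gene results. It read 4.92, 4.61 and 4.60 on the untreated arrays and 5.19, 5.27 and 5.31 on the vitamin C arrays. The groups did not overlap, and the difference was 0.55 ± 0.10 (SE, limma adjusted p = 0.0409 in a fit over all 35557 probe sets, of which 5.95% passed). Close copies of the Nlrp4 genes can share probes, so the separate values of these paralogs are uncertain.

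Nlrp5, the maternal complex subunit, differed by -0.03 ± 0.11 (SE, limma adjusted p = 0.90), with a 95% interval of -0.27 to 0.22. It read up to 4.59 without and between 4.34 and 4.70 with vitamin C, so the vitamin C arrays reached both above and below the untreated ones. Nlrp2, a maternal-effect gene of the oocyte, differed by -0.10 ± 0.11 (SE, limma adjusted p = 0.610), with a 95% interval of -0.36 to 0.16. The Nlrp9 genes, of which Nlrp9b is also known as a sensor of rotavirus RNA in the gut epithelium, gave no call among 3. Nlrp9b differed by -0.28 ± 0.12 and Nlrp9a by -0.12 ± 0.08, each with overlapping groups, and Nlrp9c by 0.22 ± 0.07 with groups apart by 0.07 (log2 difference ± SE; limma adjusted p = 0.166, 0.380 and 0.0886). Nlrp2, Nlrp9a, Nlrp9b and Nlrp9c, like Nlrp4e, lay below the lower quartile on every array, and no detection calls were used here. Whether these 5 dim genes were transcribed at all was therefore not tested. The 4 called genes and Nlrp5 lay above that quartile on every array, but their transcription was not tested either. Against the lower quartile of the mean signals of all genes Nlrp5 was dim as well.

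The partners of NLRP5 in the subcortical maternal complex were measured with 5 genes, of which 1 rose, none fell and 4 did not pass. Of all genes 13.2% passed. Khdc3 (FILIA), which encodes a KH-domain protein of the complex, read 6.15, 6.37 and 6.19 without and 7.24, 7.06 and 6.91 with vitamin C. It rose 1.79-fold (log2 difference 0.84 ± 0.10 SE, limma adjusted p = 0.00296), with groups that did not overlap. Ooep (FLOPED) differed by -0.19 ± 0.06 from an untreated mean of 10.71 ± 0.029 (SD, n = 3), and Tle6, a Groucho-related subunit, by -0.28 ± 0.13 (limma adjusted p = 0.0867 and 0.197). Ooep passed with the trended and robust spread model (0.00142) and without dim genes (0.0489), and Tle6 without untreated replicate 2 (0.0207). Padi6, an oocyte peptidylarginine deiminase, differed by -0.10 ± 0.13 and Zbed3 by 0.05 ± 0.08. The median difference of the 5 partners was -0.10.

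**Figure D2:**
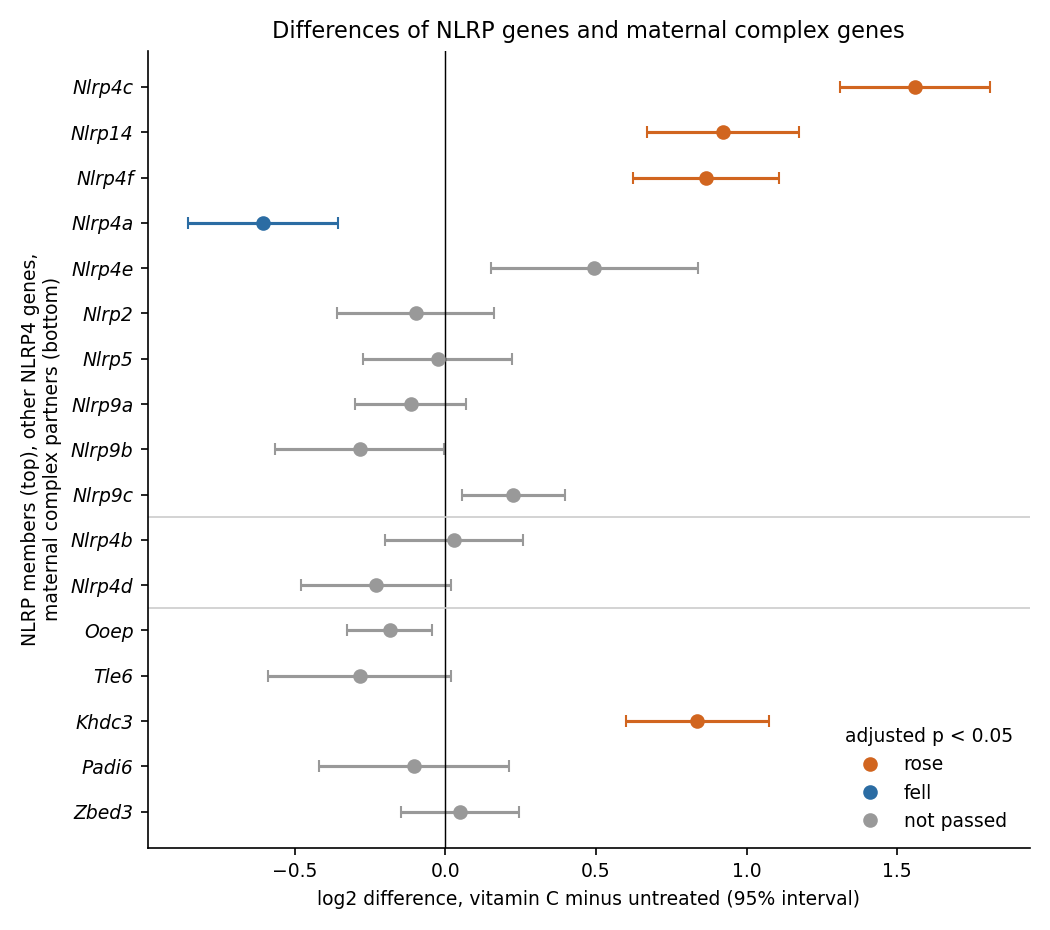
Log2 difference (vitamin C minus untreated, x axis) with its 95% interval for the 10 NLRP genes, Nlrp4b and Nlrp4d, and the 5 maternal complex partners (y axis), coloured by the limma call. The intervals of Nlrp4c, Nlrp14, Nlrp4f and Khdc3 lie above 0.5 and that of Nlrp4a lies below 0. Of the genes not called, the intervals of Ooep and Nlrp9b also lie below 0 and those of Nlrp4e and Nlrp9c above it.

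Among other oocyte and maternal-effect genes 2 of 23 measured rose, none fell and 21 did not pass, with a median difference of 0.05. Over all genes 5.75% passed as higher and 7.40% as lower. Sohlh2, a transcription factor gene of early oocytes and spermatogonia, rose by 0.71 ± 0.08 (SE, limma adjusted p = 0.00215). Dppa3 (Stella), a maternal factor that ES cells also transcribe, rose by 0.25 ± 0.06 (SE, limma adjusted p = 0.0350), a call that no fit on 5 arrays kept (0.0745 to 0.102) and that, among the other fits without a replicate block, was lost with all probe sets tested (0.0630). The 10 oocyte markers Gdf9, Bmp15, Zp1, Zp2, Zp3, Figla, Nobox, Oosp1, Mos and Npm2, growth factor, zona pellucida and regulator genes, gave no call in limma at an adjusted p under 0.05 (lowest 0.157). At an unadjusted p under 0.05 there was 1 of the 10, Nobox, beside 5777 of all 19938 genes, and Nobox passed the adjusted test without vitamin C replicate 2. Their mean log2 signal was 4.19 to 4.31 on the untreated and 4.22 to 4.33 on the vitamin C arrays, and 4 of them lay below the lower quartile on every array.

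The NLR genes of immunity, measured with 15 genes, gave no call in limma and 6 at an unadjusted p under 0.05 (5777 of 19938 over all genes). Their differences were above 0 for 12 and below 0 for 3, with a median of 0.18. Over all genes 10521 were above and 9417 below 0. Of the 15 genes 5 lay below the lower quartile on every array. Naip5, a sensor of flagellin, was the closest at 0.54 ± 0.14 (SE, limma adjusted p = 0.0501). It lay below the lower quartile on 5 of the 6 arrays. It passed with the trended and robust spread model, with arrays centred on their median, with the mean of a gene's probe sets and without untreated replicate 2. Of 8 inflammasome partners 1 fell and 7 did not pass. The gene that fell was Pycard (ASC), the adaptor between pyrin-domain receptors and caspase-1, which went from 9.19 ± 0.10 to 8.62 ± 0.097 (SD, n = 3 each; log2 difference -0.57 ± 0.08 SE, limma adjusted p = 0.00559). Casp1, below the lower quartile on every array, differed by -0.19 ± 0.08 and Il1b, which encodes the cytokine that caspase-1 matures, by 0.00 ± 0.08.

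**Figure D3:**
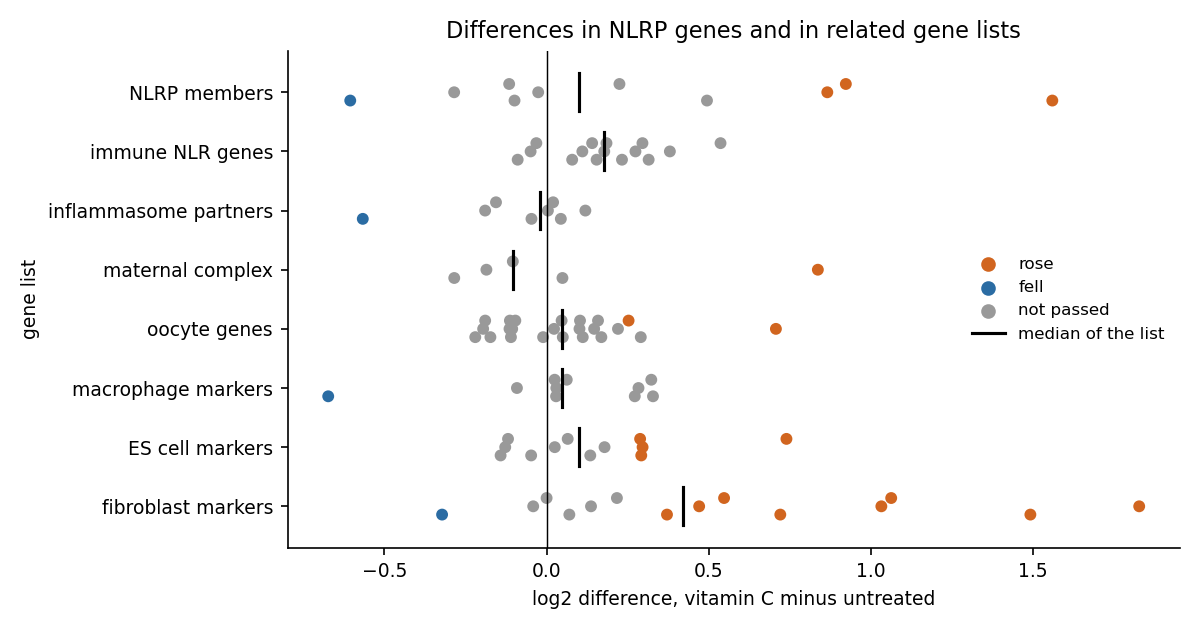
Log2 differences (vitamin C minus untreated, x axis) of each measured gene in 8 lists (y axis), coloured by the limma call, with the median of the list as a black line. The 10 NLRP genes span -0.61 to 1.56, while the immune NLR genes hold no call and the fibroblast markers run up to 1.83.

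The genes beside the NLRP genes were called at a share near that of all genes (13.2%). The 3 nearest measured genes on each side of each NLRP gene, with the NLRP genes themselves passed over, came to 34 genes, of which 4 rose, 2 fell and 28 did not pass, with a median of -0.02. None of the 6 neighbours of Nlrp4c passed in limma (-0.23 to 0.27; 1 at an unadjusted p under 0.05). Leaving out single arrays changed that for Vmn1r64 (without untreated replicate 3) and for the zinc finger gene Zfp444 (without vitamin C replicate 3), which then passed. None of the 6 beside Nlrp14, mostly olfactory receptor genes, passed either (-0.14 to 0.21, with 0 at an unadjusted p under 0.05). Many neighbours were dim, so a change in them could go unseen. Olfr715b, Olfr17, Olfr715 and Olfr716 beside Nlrp14 lay below the lower quartile on every array. So did Vmn1r58, Vmn1r64 and Vmn1r65 beside Nlrp4c. Of all 34 neighbours 13 did, beside 2754 of all 19938 genes. Beside Nlrp4f, Zfp369 on the higher side fell by 0.45 and the olfactory receptor gene Olfr466 on the lower side rose by 0.33. Both calls depended on the setting, and Olfr466 lay below the lower quartile on every array.

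Nlrp4a, Nlrp9a and Nlrp9c share a stretch of chromosome 7 with cytochrome P450 genes of the Cyp2b family. There Cyp2b23, on the higher side of Nlrp4a, read 4.81, 5.66 and 4.80 without vitamin C and at least 7.75 on every vitamin C array (mean 7.88). It rose by 2.79 ± 0.22 (SE, limma adjusted p = 0.000620), the rise of rank 8 among all genes, while Nlrp4a fell and Nlrp9a and Nlrp9c did not pass. Cyp2b9 on the lower side rose by 0.36 ± 0.08 (SE, limma adjusted p = 0.0291), a call lost under 7 of 11 other settings. On the lower side of Nlrp4e, Nlrp5 and Nlrp9b, which share their neighbours, the adhesion gene Ceacam20 rose by 0.65 and Pvr, a nectin-like receptor gene, fell by 0.53. Neighbours were taken at any distance. The Nlrp9b window starts at chr7:20007773, and those of Nlrp4e and Nlrp5 start at chr7:23300942 or higher. Ceacam20 and Pvr lie on the lower side of Nlrp9b, so Nlrp4e and Nlrp5 lie far from them. The count of 6 called neighbours was 3 without untreated replicate 1 and 3 with all probe sets tested. It was 4 with any other array left out.

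**Figure D4:**
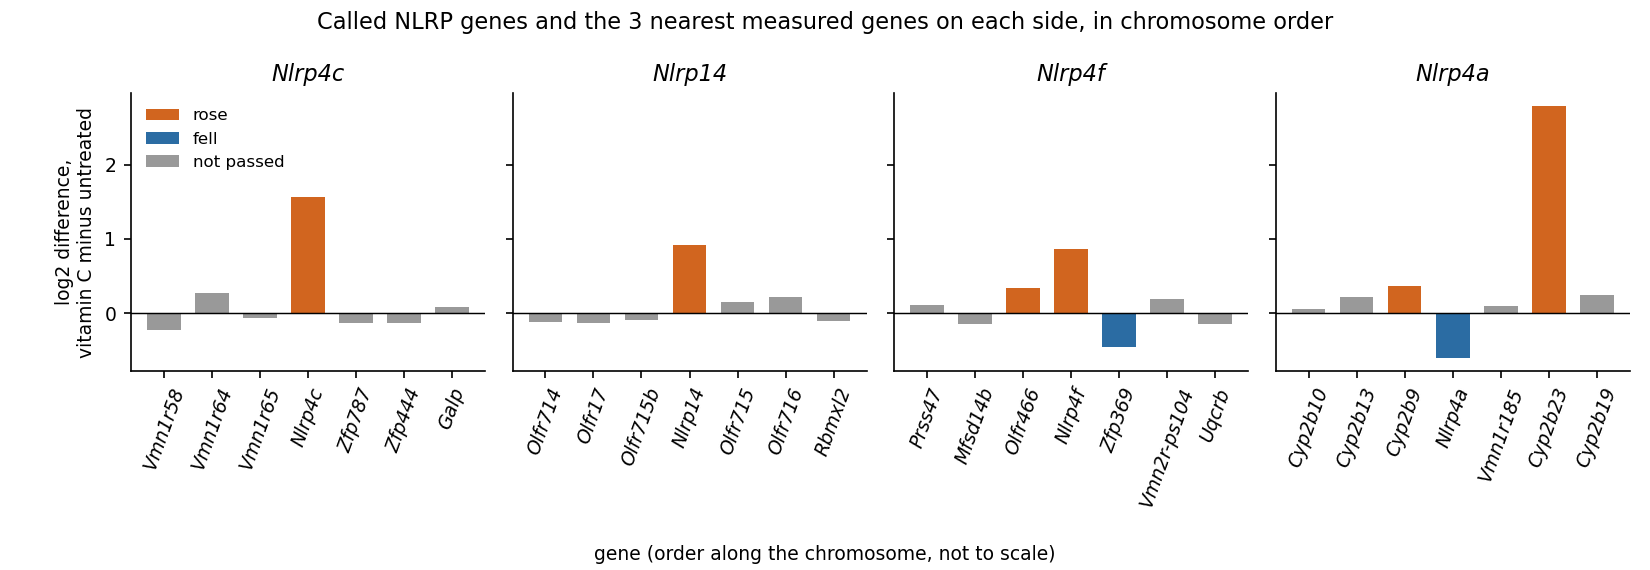
Log2 differences (vitamin C minus untreated, y axis) of the 4 called NLRP genes and of the 3 nearest measured genes on each side of each, in chromosome order (x axis, not to scale, other NLRP genes of the list left out). Nlrp4c and Nlrp14 stand between genes that did not pass, and Nlrp4a fell between Cyp2b9 and Cyp2b23, which rose. Several of the genes beside Nlrp4c and Nlrp14 lay below the lower quartile on every array.

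The genes whose profile over the 6 arrays was most like that of Nlrp4c were found by the root-mean-square distance between log2 values centred on each gene's mean, leaving out genes with Gm and Rik symbols. The closest was Nxf2, an X-linked germ-cell relative of the nuclear RNA export factor (distance 0.10), followed by Mgat4c, an N-acetylglucosaminyltransferase gene (0.12), Taf7l, a germ-cell TFIID subunit gene (0.14), Gsto1, a glutathione transferase gene (0.15), and Nckap1l, a subunit gene of the WAVE complex (0.16). Their own differences were 1.46, 1.39, 1.70, 1.33 and 1.5 on the log2 scale. Nxf2 read 3.53, 3.28 and 3.08 without and 4.78, 4.99 and 4.49 with vitamin C, so its groups did not overlap. The untreated values of Nxf2 and of Mgat4c lay below the lower quartile of their array. A distance over 6 arrays in 2 groups mostly reflects the difference between the groups.

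The arrays of a group correlated with each other at 0.995 to 0.996 over all genes and those of different groups at 0.989 to 0.990. The medians of the arrays ran from 5.52 to 5.60. The ES cell label was checked with 12 markers, whose mean log2 signal was 10.23 to 10.25 without and 10.36 to 10.38 with vitamin C. Of these 4 rose (Nanog, Zfp42, Utf1 and, with the largest difference, Eras at 0.74), none fell and 8 did not pass. Their differences were above 0 for 8 and below 0 for 4. The groups were apart for 10, of which Pou5f1, Dppa5a and Fgf4 were lower with vitamin C (-0.12, -0.14 and -0.13). Over all genes 5.75% passed as higher and 7.40% as lower, and the groups were apart for 35.0%. Among the fibroblast markers 14 were measured: 8 passed as higher and 1 as lower, with a list mean of 5.63 to 5.73 on the untreated and 6.19 to 6.25 on the vitamin C arrays. Of 10 macrophage markers none passed as higher and 1, the lysosomal gene Cd68, fell by 0.67. Their differences were above 0 for 8 and below 0 for 2, and the groups were apart for 5. At an unadjusted limma p under 0.05 there were 4 of the 10, beside 5777 of all 19938 genes. The list means were 4.49 to 4.55 without and 4.53 to 4.63 with vitamin C. The part of other cells in the NLRP differences was not tested, and in bulk RNA more cells transcribing a gene cannot be told apart from more RNA per cell.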

How the data were processed

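RNA was measured on 6 one-colour Affymetrix arrays. The authors deposited log2 values (the scale was read from the data), made with RMA per the submitters' processing notes. Software and genome build: not given in the sources used here. Quantile normalization, a step of RMA in general, hides a change shared by all genes.

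Platform annotation gave 1 symbol for 21789 of 35557 probe sets, which covered 19938 genes. Samples were grouped by their titles. The treated and untreated arrays were compared with limma 3.58.1 (R 4.3.3, lmFit and eBayes, no covariate, tested on simulated data), with Benjamini-Hochberg adjustment over all genes, two-sided. Differences are vitamin C minus untreated. Named were all 10 genes, the maternal complex and remaining Nlrp4 genes, called members of the other lists, called neighbours and 5 genes most like the called gene of largest difference; the further genes named, such as Naip5, were picked with their values in view. The genes and lists were chosen with earlier results of these data known. Gene order came from a GRCm38.p6 gene table. Promoter windows were aligned locally with Biopython 1.88. A planned comparison of proteins was not run. Alternatives changed the spread model, centring, filter, probe sets, pairing and arrays. Figures used matplotlib 3.10.9.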

Additional observations from a re-analysis of the deposited data

Results flagged for a closer look

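The probe set shared by Nlrp4e and Nlrp4c, which entered none of the gene comparisons, was higher with vitamin C by 0.55 (log2), from 4.71 ± 0.18 to 5.26 ± 0.060 (SD, n = 3 each), and all 3 vitamin C arrays lay above the untreated ones. Groups of 3 arrays are too small for an outlier check.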

How the results depend on the processing

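The calls of Nlrp4c, Nlrp4f, Nlrp14 and Nlrp4a kept their direction and passed under all 12 alternatives, and 4 to 5 of the 10 genes passed in each. The spread model, dim filter, test of all probe sets and replicate block could change only the p-value, not the difference. With 1 probe set per NLRP gene, the mean of a gene's probe sets changed none of their values. Nlrp4e, the fifth, passed under 3 of its 11 (adjusted p 0.0236 to 0.176, the lowest with the replicate block), and Dppa3 did not pass with the block (0.0768). The filter on dim genes was the lower quartile of the mean signals of all genes. The 6 NLRP genes not called lay below it and were not tested there. The count of all called genes was 4151 with the trended and robust spread model and 1723 with the replicate block, and 1483 to 1721 with 1 array left out, from fits with fewer arrays. The count of immune NLR and inflammasome genes, 1 in the report, was 2 with the trended and robust model, with centred arrays, with the mean of a gene's probe sets (each time adding Naip5), without dim genes (adding Nlrp6) and with the replicate block (adding Naip6), and 1 to 2 with 1 array left out. The count of called neighbours, 6 in the report, was 3 with all probe sets tested and 3 to 4 with 1 array left out. Deviations from the group means correlated at 0.05, 0.01 and -0.02 between arrays of the same replicate number. Of the 6 arrays 3 correlated best with their own number, so the numbers were not taken to pair the arrays. The number of arrays limits the precision.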

Other observations

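The pseudogene Nlrp5-ps, outside the lists and singled out after its values were seen, read 5.87, 5.83 and 5.76 on the untreated and 6.09, 5.94 and 5.90 on the vitamin C arrays. The groups did not overlap, and the difference of 0.16 ± 0.07 (SE, limma adjusted p = 0.197) did not pass. Nlrp1c-ps, a pseudogene of the immune branch, differed by -0.10 ± 0.11 (SE, limma adjusted p = 0.620).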
